A study of Rattus norvegicus with 20 samples.

Results

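The heat shock proteins and the co-chaperones that work with them were followed here as a group of genes in the rat ovary. Members were chosen by their symbols: those that begin with Hspa, Hspb, Hsp90, Hspd1, Hspe1, Hsph1, Dnaja, Dnajb, Dnajc, or Bag and a digit. The rule matched 70 genes, and 66 of them, among 12452 named genes, had a probe clearly above the background (the scanner's well-above-background flag) in 4 or more rats of 20. Of the 66, 63 were well above background on every array. Dnajb8 was so on 10 arrays, Hspa1l on 11 and Hspb7 on 13. The 4 that did not pass, Dnajb7, Dnajc5b, Dnajc5g and Hspb3, were well above background on 0 arrays. By their letters alone the rule also took Hspbp1 and Hspbap1, which are not small heat shock proteins. Another 13 genes with such symbols, the stress-inducible Hspa1a, Hspa1b and Dnajb1 among them, were not analysed here.

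The ovaries came from female Sprague Dawley rats aged 46 days whose mothers had been fed brominated flame retardants as a mixture in the chow, from at least 1 week before mating until the pups were weaned on day 21. By share, 44.2% of the mixture was BDE-209 and 52.1% was DE-71, both polybrominated diphenyl ethers, as was the 0.4% of DE-79. The other 3.3% was hexabromocyclododecane (HBCD). Control mothers got chow without it and had 5 daughters on arrays. A nominal 0.06 mg/kg/day came from 0.75 mg per kg of chow (4 daughters), a nominal 20 from 250 mg (5 daughters) and a nominal 60 from 750 mg (6 daughters), each daughter from a litter of its own. The doses are those given to the mothers, and the amount that reached each daughter is not in these values. RNA of whole ovaries was read on 1-colour Agilent arrays, 1 per rat.

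Values below are log2 signal relative to the 75th percentile of the same array, so that a difference of 1 is a factor of 2. Levels of different genes come from different probes and are not set against each other. Between arrays the 75th percentile ranged from 1158 to 1737 intensity units, 74.8% to 83.4% of the spots were well above background, and 0 were saturated. The arrays lay, per the barcodes in the file headers, on 3 slides of 7, 6 and 7 arrays, each with rats of all 4 groups, and 4454 of 23258 probes differed between slides in limma with dose in the model. Slides 1, 2 and 3 held 2, 1 and 2 controls and 1 to 3 rats of each exposed dose. A difference within a slide thus rests on few rats, and the 3 doses share its controls. Of the ovarian markers, 9 of 10 were measured, Cyp11a1, Star, Inha and Amh among them.

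Chaperones of the HSP70 family bind unfolded stretches of protein and release them in a cycle of ATP hydrolysis. J-domain proteins (the Dnaja, Dnajb and Dnajc genes) bring the client and start hydrolysis, and HSP110 and the BAG proteins help the nucleotide leave. HSP90 takes over partly folded clients, the steroid hormone receptors among them, which makes the system of interest in a steroid-producing organ. Heat shock factors switch on the cytosolic genes when unfolded protein builds up, whereas the unfolded protein response does so for the chaperones of the endoplasmic reticulum (ER). HSP60 and HSP10, encoded by Hspd1 and Hspe1, form the folding chamber of the mitochondrial matrix.

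The first question was whether these genes differed in daughters of exposed mothers. No member passed the test at any dose. limma with Benjamini-Hochberg adjustment over 23258 probes called 0 probes (0.0%) for each dose against 0, for the trend over dose order and for the joint test of the 3 doses. Over all probes the lowest adjusted p for doses 0.06, 20 and 60 came to 1.00, 0.929 and 0.782. It came to 0.520 for the trend and 0.951 for the joint test. At an unadjusted p under 0.05 there were 710, 1066 and 1464 probes at the 3 doses, 1338 for the trend and 738 for the joint test. The differences below are therefore values that did not pass, and because all 3 comparisons use the same 5 control rats, they are not independent of each other.

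Counted at an unadjusted p under 0.05, 4 members stood lower and 3 higher at 0.06 mg/kg/day, against 1.74% and 1.73% of all named genes. At 20 mg/kg/day 8 members stood lower and 2 higher, against 2.39% and 3.2% of genes, and at 60 mg/kg/day 5 stood lower and 2 higher, against 3.3% and 3.58%. The joint test had 6 members, against 3.57% of genes. The trend had 6 lower and 3 higher, against 2.87% and 3.81%. The median member differed from 0 mg/kg/day by -0.03, 0.00 and -0.03 log2 at doses 0.06, 20 and 60, and the median named gene by -0.01, 0.02 and -0.02. The members at an unadjusted p under 0.05 came from several classes, the small heat shock proteins (Hspb7 at 60) and unclassed genes (Hspbap1 and Dnajc4 at 0.06) included. On 1 member, Bag3, every array at 0.06 mg/kg/day lay below every control array (0.377% of genes), and on 1, Dnajc16, every array lay above (0.337%). At 20 mg/kg/day this held for Dnajb9, below (0.353%), and at 60 for 0 members, with 0.241% of genes below and 0.233% above.

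Hsph1 encodes HSP110, a partner of HSP70 that frees its nucleotide. It read -1.64, -0.89, -1.59, -1.21 and -1.81 log2 in control replicates 1 to 5. It read -2.29, -1.68, -2.07 and -1.99 at 0.06 mg/kg/day and -2.20, -2.26, -1.45, -1.70 and -2.22 at 20, and at 60 the lowest, median and highest of the 6 rats were -2.15, -1.89 and -1.52. Control replicates 2 and 4 were the highest of the 20 arrays, and 3 of 4, 3 of 5 and 4 of 6 exposed rats lay below every control. The difference from 0 mg/kg/day was -0.58 ± 0.20, -0.54 ± 0.19 and -0.45 ± 0.18 log2 (SE) at 0.06, 20 and 60, with adjusted p of 1.00, 0.929 and 0.782 in limma and unadjusted p of 0.0103, 0.0117 and 0.0248. Leaving out control replicate 2 brought it to -0.45, -0.41 and -0.32. With slide as a block it was -0.57, -0.55 and -0.39, and within each of the 3 slides it was below 0 at every dose, between -0.94 and -0.22. Each within-slide value sets 1 to 3 exposed rats against 1 or 2 controls. In whole ovaries, fewer cells that hold a transcript and less of it per cell cannot be told apart.

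Dnaja1, a J-domain protein that serves cytosolic HSP70, was high and low in much the same rats. It read 3.28, 3.79, 3.01, 3.45 and 2.69 log2 in the controls, 2.49, 2.65, 2.78 and 2.61 at 0.06 mg/kg/day and 2.58, 2.74, 3.14, 2.80 and 2.53 at 20. At 60 its lowest, median and highest values were 2.76, 2.95 and 3.29. Control replicates 2 and 4 were again the 2 highest arrays, and each exposed group overlapped the controls, of which replicate 5 read lowest. The difference was -0.61 ± 0.18 at 0.06 (unadjusted p 0.00259, adjusted p 1.00 in limma), -0.48 ± 0.17 at 20 (0.00903 and 0.929) and -0.28 ± 0.16 at 60 (0.0913 and 0.786). As folds, the 0.06 and 20 mg/kg/day means were 0.654 and 0.715 of the control mean. Without control replicate 2 the first 2 differences were -0.48 and -0.35.

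**Figure D1:**
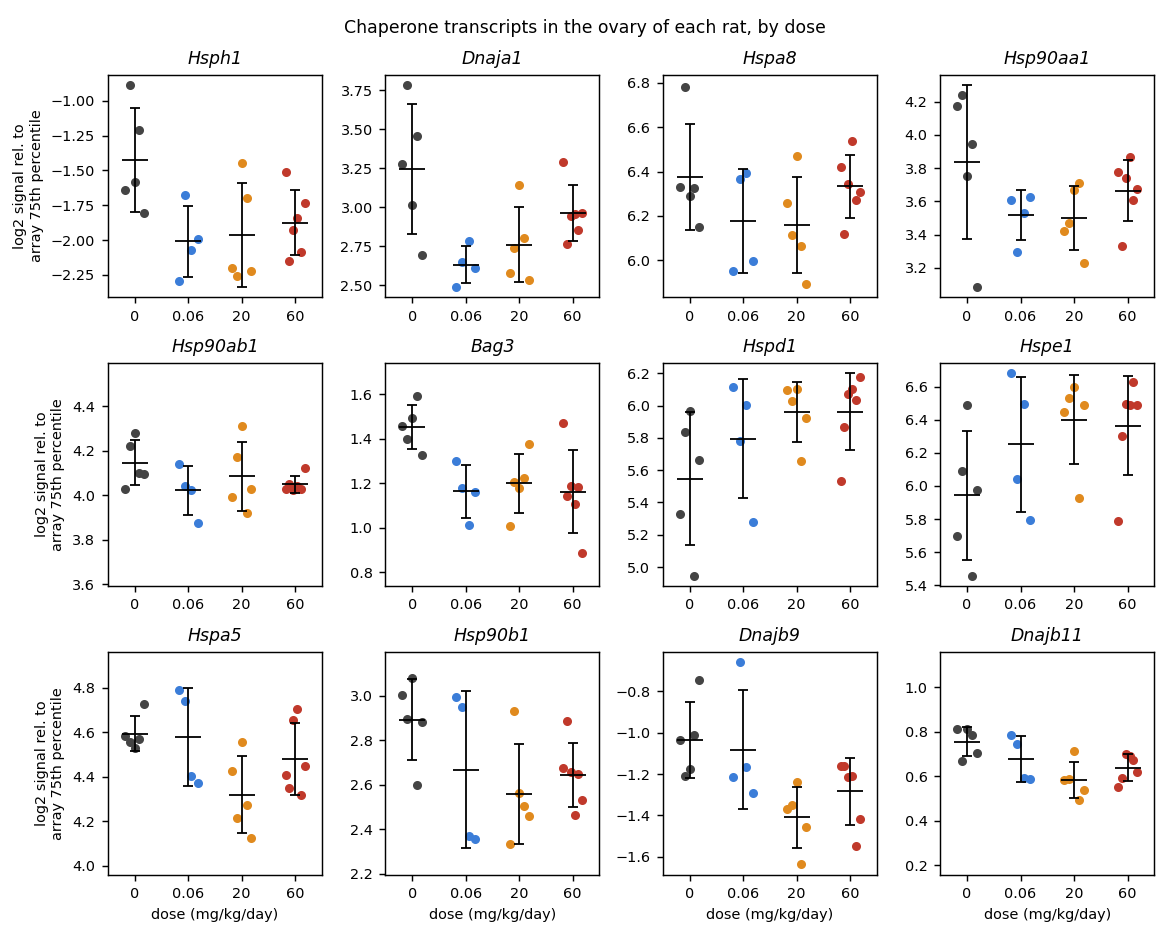
Values of 12 members in the ovary of each rat. The vertical axis is log2 signal relative to the array's 75th percentile, each panel on its own scale, the horizontal axis the dose of the mother in mg/kg/day, points are rats (5, 4, 5 and 6), and bars are the mean and SD. Hsph1 and Dnaja1 were highest in control rats, Hspd1 and Hspe1 lowest in control rats, and in all 12 panels but those of Bag3 at 0.06 and Dnajb9 at 20 the exposed rats overlapped the controls.

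Heat shock factors are known to bind a repeated short sequence in the promoters of such genes. A heat shock element of 3 units was searched, with GAA, TTC and GAA set apart by 2 bases of any kind, or on the other strand TTC, GAA and TTC spaced alike, in the 300 bases around each start (250 before, 50 after) of RefSeq's GRCr8 promoters. Of the 66 members 53 had such a promoter and 5 held a match: Hsph1, Dnaja1, Hspa8, Hspd1 and Hspe1. Among all 27457 promoters 202 held one (0.736%), and among those of measured named genes 0.472% did. They comprise 3 cytosolic genes, Hsph1 and 2 with a positive r to it, and the mitochondrial pair, with a negative r to Hsph1. Hsp90aa1, which also ran with Dnaja1 (r = 0.81), was not among the 5. Whether it was among the 53 members with a promoter was not recorded, and only the first window listed for each member was counted. For 4 of the 5 the promoter is shown, with the matches in capitals. The Hsph1 promoter is chr12:10427118-10427417 (plus strand), that of Dnaja1 chr5:60638154-60638453 (plus) and that of Hspa8 chr8:50080264-50080563 (plus). Hspd1 and Hspe1 start back to back on chromosome 9, the promoter of Hspe1 being chr9:64084077-64084376 (plus). The Hspd1 window overlaps it on the minus strand and holds the same matched bases, so only that of Hspe1 is printed.
Hsph1: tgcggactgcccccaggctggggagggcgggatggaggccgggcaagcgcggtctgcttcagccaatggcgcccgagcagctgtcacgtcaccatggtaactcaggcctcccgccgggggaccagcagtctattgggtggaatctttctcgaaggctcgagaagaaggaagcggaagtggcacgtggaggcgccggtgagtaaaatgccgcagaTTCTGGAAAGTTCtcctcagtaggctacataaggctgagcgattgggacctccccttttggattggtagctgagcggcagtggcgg
Dnaja1: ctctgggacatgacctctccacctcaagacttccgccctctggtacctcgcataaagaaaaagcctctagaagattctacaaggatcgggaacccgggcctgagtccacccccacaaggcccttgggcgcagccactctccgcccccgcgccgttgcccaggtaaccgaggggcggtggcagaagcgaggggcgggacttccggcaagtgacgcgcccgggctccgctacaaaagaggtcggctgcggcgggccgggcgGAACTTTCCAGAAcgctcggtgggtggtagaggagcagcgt
Hspa8: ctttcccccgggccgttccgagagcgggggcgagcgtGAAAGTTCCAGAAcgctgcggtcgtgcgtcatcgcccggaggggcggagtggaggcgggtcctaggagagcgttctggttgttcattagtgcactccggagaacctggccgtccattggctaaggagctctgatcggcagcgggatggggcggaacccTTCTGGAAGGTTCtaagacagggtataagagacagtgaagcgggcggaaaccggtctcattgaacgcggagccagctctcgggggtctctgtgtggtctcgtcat
Hspe1: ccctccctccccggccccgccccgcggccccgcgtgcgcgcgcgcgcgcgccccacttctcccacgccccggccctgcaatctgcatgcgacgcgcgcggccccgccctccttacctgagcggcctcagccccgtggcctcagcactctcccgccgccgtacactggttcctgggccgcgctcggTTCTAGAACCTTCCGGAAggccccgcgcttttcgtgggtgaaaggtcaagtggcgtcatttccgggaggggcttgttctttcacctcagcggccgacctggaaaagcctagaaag

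With the start base counted as 0, the match in Hsph1 ran from base -36 to -24 and that in Dnaja1 from 9 to 21, in the transcribed part. Hspa8 and Hspe1 had 2 matches each, within bases -213 to -43 and -65 to -48, those of Hspe1 overlapping. A match is a description of these letters and not evidence that a factor was bound.

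Hspa8, the constitutive HSP70 of the cytosol, read 6.33, 6.78, 6.29, 6.32 and 6.15 log2 in control rats. It read 5.95, 6.37, 6.39 and 6.00 at 0.06 mg/kg/day, 6.26, 6.12, 6.47, 6.07 and 5.89 at 20, and 6.12, 6.33 and 6.54 as lowest, median and highest at 60. Control replicate 2 stood above all other arrays, as it did for Hsph1 and Dnaja1. The differences of -0.20, -0.21 and -0.04 were within the spread of the rats, and 3 further probes of Hspa8 gave the same sign at every dose. Hsp90aa1, the stress-responsive HSP90, read 4.17, 4.24, 3.76, 3.95 and 3.09 in the controls. It read 3.61, 3.30, 3.53 and 3.63 at 0.06 and 3.42, 3.47, 3.67, 3.71 and 3.23 at 20, and 3.33, 3.71 and 3.87 at 60. The control rats covered a wider range than any exposed group and held both the highest and the lowest array. Its differences were -0.32 ± 0.18, -0.34 ± 0.17 and -0.17 ± 0.17, with adjusted p of 1.00, 0.929 and 0.851 in limma. Hsp90ab1, the constitutive HSP90, read 4.03, 4.22, 4.28, 4.10 and 4.10 in the controls, 4.14, 4.04, 4.02 and 3.88 at 0.06, 3.99, 4.17, 4.31, 3.92 and 4.03 at 20, and 4.02, 4.04 and 4.12 at 60. It averaged 4.15 ± 0.10, 4.02 ± 0.11, 4.09 ± 0.16 and 4.05 ± 0.04 (SD, n = 5, 4, 5 and 6) in order of dose, and its within-dose SD of 0.11 was among the smallest of the members.

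Hspa4l, a relative of HSP110 known from the mouse testis, had the largest differences of any member at 20 and 60 mg/kg/day. It read -0.57, -1.35, -2.68, -1.73 and -2.56 log2 in the controls and -2.51, -1.84, -2.97 and -1.86 at 0.06 mg/kg/day. It read -3.13, -3.25, -3.19, -1.59 and -2.64 at 20, and -3.56, -2.71 and -2.22 as lowest, median and highest at 60. Control replicates 1 and 2 held the highest values, while control replicates 3 and 5 lay among the exposed rats. The difference was -0.98 ± 0.39 at 20 (unadjusted p 0.0223, adjusted p 0.929 in limma) and -0.97 ± 0.38 at 60 (0.0195 and 0.782). Without control replicate 1 it was -0.68 and -0.66. Within slides 1, 2 and 3 it was -2.17, -0.56 and -0.33 at 20 and -1.93, -0.04 and -0.37 at 60, so the size came mostly from slide 1. Hspa4, the other HSP110 relative, read 2.46, 2.67, 2.63, 2.74 and 2.71 in the controls, 2.41, 2.68, 2.65 and 2.66 at 0.06, 2.70, 2.47, 2.77, 2.70 and 2.54 at 20, and 2.57, 2.65 and 2.84 at 60. All groups overlapped, and it averaged 2.64 ± 0.11, 2.60 ± 0.12, 2.64 ± 0.13 and 2.69 ± 0.12 (SD) in order of dose.

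Bag3, which links HSP70 to small heat shock proteins and to autophagy, was the member that separated most evenly. It read 1.46, 1.40, 1.49, 1.59 and 1.33 log2 in the controls, 1.30, 1.18, 1.01 and 1.16 at 0.06 mg/kg/day and 1.01, 1.21, 1.18, 1.22 and 1.38 at 20. At 60 the lowest, median and highest were 0.89, 1.16 and 1.47. All 4 rats at 0.06, 4 of 5 at 20 and 5 of 6 at 60 lay below every control. The differences of -0.29 ± 0.10, -0.25 ± 0.10 and -0.29 ± 0.09 had unadjusted p of 0.0120, 0.0183 and 0.0062 and adjusted p of 1.00, 0.929 and 0.782 in limma. They were below 0 on each slide at each dose, between -0.57 and -0.12, and between -0.35 and -0.21 when any 1 array was left out. The within-slide values set 1 to 3 exposed rats against 1 or 2 controls that all doses share, so they are not separate replications. In linear terms the exposed means were 0.818, 0.839 and 0.818 of the control mean.

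Of the other BAG genes, Bag1, Bag2, Bag4, Bag5 and Bag6, 0 had an unadjusted p under 0.05 at any dose. Bag4 stood 0.41, 0.07 and 0.42 log2 from the controls, and Bag2 stood -0.16, -0.18 and -0.16. Of the 10 cytosolic Dnaja and Dnajb genes 6, 8 and 7 stood lower than in control rats at doses 0.06, 20 and 60, with medians of -0.13, -0.15 and -0.11. Of all named genes 53.0%, 44.9% and 55.3% stood lower. Dnajb4 differed by -0.35 ± 0.16 at the highest dose, with an unadjusted p of 0.0471 in limma. Its control replicate 1 read -1.20 and the other 19 arrays -1.94 or lower, so 1 control rat weighed heavily in this difference. Dnaja4, which stood at 0.32, -0.19 and 0.19, and Dnaja2, at -0.06, 0.04 and 0.14, did not share a direction across doses.

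The mitochondrial members stood the other way. All 7 put in this class (Hspd1, Hspe1, Dnaja3, Dnajc11, Dnajc15, Dnajc19 and Dnajc30) were above the control mean at every dose by their brightest probe. The medians were 0.21, 0.15 and 0.17 log2, while 53.0%, 44.9% and 55.3% of all named genes stood below the control mean. A dimmer probe of Dnajc19 stood at -0.18, -0.09 and -0.05, whereas the dimmer probes of Dnaja3 and Hspe1 stood above 0 at every dose. Hspe1, the HSP10 lid of the folding chamber, read 5.70, 6.09, 6.49, 5.46 and 5.98 log2 in the controls. It read 6.68, 6.04, 6.49 and 5.79 at 0.06 mg/kg/day, 6.45, 6.53, 6.60, 5.93 and 6.49 at 20, and 5.79, 6.49 and 6.62 as lowest, median and highest at 60. Hspd1, the HSP60 wall of the chamber, read 5.33, 5.83, 5.96, 4.95 and 5.66 in the controls, 6.12, 5.78, 6.00 and 5.28 at 0.06, 6.10, 6.03, 6.10, 5.66 and 5.92 at 20, and 5.53, 6.05 and 6.18 at 60. For both genes control replicate 4 was the lowest array, and each exposed group held at least 1 rat within the control range.

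Hspe1 differed by 0.31 ± 0.22, 0.46 ± 0.21 and 0.42 ± 0.20 and Hspd1 by 0.25 ± 0.20, 0.41 ± 0.19 and 0.42 ± 0.18. At 20 the unadjusted p was 0.0413 for both and the adjusted p 0.929, and at 60 they were 0.0477 and 0.0333, with an adjusted p of 0.782 in limma. A second probe of Hspe1 gave 0.38, 0.57 and 0.55. Without control replicate 4 the differences of Hspd1 at 20 and 60 were 0.26 and 0.27, against 0.41 and 0.42 with it. Within slide 2, with 1 control, they were 0.07 and 0.10, and within slide 3 they were 0.59 and 0.88. The 0.88 sets 1 rat against 2 controls. With slide as a block Hspd1 and Hspe1 stood at 0.32 and 0.30 at 60 mg/kg/day. Dnajc15, a J-domain protein of the inner membrane, was at 0.33 ± 0.16, 0.31 ± 0.15 and 0.28 ± 0.14.

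Of the 10 ER members 7, 8 and 9 stood lower at doses 0.06, 20 and 60. Of all named genes 53.0%, 44.9% and 55.3% did. At 20, 4 of the ER members stood lower at an unadjusted p under 0.05 in limma, against 2.39% of genes. Hspa5, the ER HSP70 known as BiP, read 4.58, 4.56, 4.53, 4.57 and 4.73 log2 in the controls, 4.79, 4.74, 4.41 and 4.37 at 0.06 mg/kg/day and 4.43, 4.22, 4.56, 4.27 and 4.12 at 20. At 60 the lowest, median and highest were 4.32, 4.43 and 4.70. The control rats lay close together, and 4 of 5 rats at 20 lay below all of them. The difference at 20 was -0.27 ± 0.11 (unadjusted p 0.0204, adjusted p 0.929 in limma), and at 0.06 and 60 it was -0.02 and -0.11.

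Dnajb9, an ER J-domain protein that binds BiP and is a classical target of the unfolded protein response, read -1.04, -1.21, -1.18, -1.01 and -0.75 in the controls. It read -1.21, -0.66, -1.17 and -1.29 at 0.06, -1.37, -1.35, -1.24, -1.64 and -1.46 at 20, and -1.55, -1.21 and -1.16 at 60. All 5 rats at 20 and 4 of 6 at 60 lay below every control. The difference was -0.37 ± 0.12 at 20 (unadjusted p 0.00763, adjusted p 0.929 in limma) and -0.25 ± 0.12 at 60 (0.0516 and 0.782). Dnajb11, which helps BiP with newly made proteins, read 0.81, 0.67, 0.81, 0.78 and 0.70 in the controls, 0.78, 0.75, 0.59 and 0.59 at 0.06, 0.58, 0.59, 0.71, 0.49 and 0.54 at 20, and 0.55, 0.65 and 0.70 at 60. It averaged 0.76 ± 0.07, 0.68 ± 0.10, 0.58 ± 0.08 and 0.64 ± 0.06 (SD) in order of dose and differed by -0.17 ± 0.07 at 20. Hsp90b1, the ER HSP90 known as GRP94, differed by -0.33 ± 0.14 at 20. Dnajc16 stood higher at 0.06, by 0.45 ± 0.15 (unadjusted p 0.00684, adjusted p 1.00 in limma). Its 4 rats read -3.49, -4.13, -4.10 and -4.16 there, against -4.54, -4.46, -4.50, -4.22 and -4.39 in the controls. Without the first of these rats the difference was 0.29. It read -4.25, -4.57, -4.12, -4.31 and -4.05 at 20, and -4.50, -4.34 and -4.0 at 60. Of 19 measured ER stress and ER chaperone genes outside the symbol rule, such as Calr, Hyou1 and Xbp1, 11, 13 and 14 stood lower at the 3 doses, with medians of -0.02, -0.07 and -0.06. Of all named genes 53.0%, 44.9% and 55.3% stood lower. At an unadjusted p under 0.05 in limma, 0, 0 and 2 of the 19 stood lower, against 1.74%, 2.39% and 3.3% of genes.

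**Figure D2:**
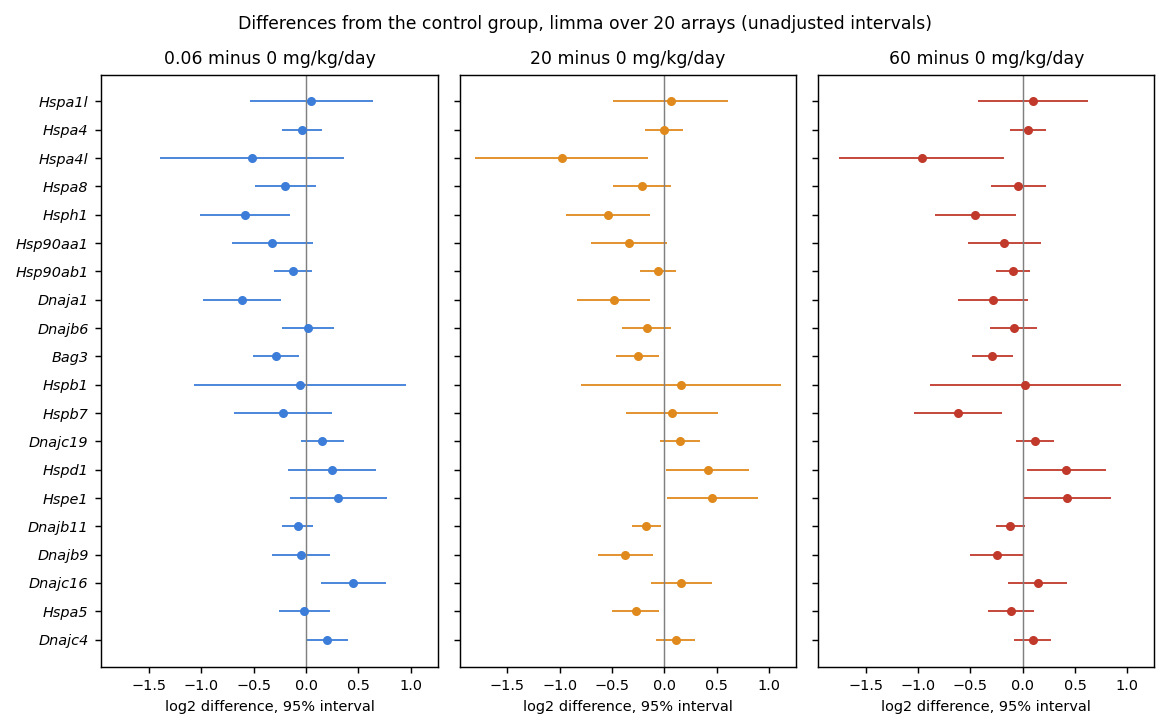
Difference of each dose group from 0 mg/kg/day for 20 members, in log2, with 95% intervals from limma that are not adjusted for the number of genes. Hsph1 and Bag3 lay below 0 with their intervals at all 3 doses, Hspd1 and Hspe1 above 0 at 20 and 60, and 0 of these differences passed the adjusted test.

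Small heat shock proteins hold unfolded proteins until HSP70 takes them. Their within-dose SD ran from 0.17 log2 for Hspb2 to 0.76 for Hspb1. Hspb1 (HSP27) read 2.20, 2.43, 3.86, 2.25 and 1.47 in the controls, 3.53, 1.78, 2.21 and 2.02 at 0.06, 2.23, 3.27, 2.07, 1.98 and 3.43 at 20, and 1.85, 2.26 and 3.84 at 60. Each group held at least 1 rat far above the rest. It averaged 2.44 ± 0.88, 2.38 ± 0.78, 2.60 ± 0.70 and 2.47 ± 0.69 log2 (SD, n = 5, 4, 5 and 6) in order of dose, and its differences of -0.06, 0.16 and 0.03 were far inside that spread. Hspb7, a small heat shock protein of heart and muscle, read -7.18, -6.78 and -6.52 as lowest, median and highest at 60 mg/kg/day, against -5.95, -6.70, -6.45, -6.20 and -5.64 in the controls. Its difference at 60 was -0.62 ± 0.20 (unadjusted p 0.00642, adjusted p 0.782 in limma). It read -5.75, -6.75, -6.80 and -6.33 at 0.06 and -6.25, -6.18, -6.19, -5.79 and -6.16 at 20. Hspb7 was near background, being well above it on 13 arrays only, and with normexp background correction the difference was 0.01. Of the 6 measured small heat shock proteins 4, 0 and 4 stood lower at doses 0.06, 20 and 60. Of all named genes 53.0%, 44.9% and 55.3% did.

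Cytosolic partners outside the symbol rule were followed beside the members. Of 23 such genes other than members, which include Hsf1, Stip1, St13, Cdc37 and the subunits of the chaperonin CCT, 18, 11 and 13 stood lower at doses 0.06, 20 and 60, with medians of -0.11, 0.00 and -0.01. Of all named genes 53.0%, 44.9% and 55.3% stood lower. At an unadjusted p under 0.05 in limma, 2, 2 and 0 of the 23 stood lower, against 1.74%, 2.39% and 3.3% of genes. Of 20 immediate early genes, which respond to handling of tissue and to hormones within minutes, 17, 16 and 16 stood lower, with medians of -0.34, -0.17 and -0.34. At an unadjusted p under 0.05 in limma, 0, 1 and 2 of these 20 stood lower, against 1.74%, 2.39% and 3.3% of genes. The summed level of the 20 lay between 3.65 and 4.44 log2 in exposed rats and between 3.82 and 5.47 in control rats. Its median was 4.09 in the controls and 3.89, 3.97 and 3.94 at doses 0.06, 20 and 60. The part of the immediate early genes in the chaperone values was not tested.

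The second question was which genes went up and down with the heat shock genes from rat to rat. Hsph1 was taken as the index of the cytosolic response and its level compared with that of each of the other 12451 named genes over the 20 arrays. Dnaja1 had the highest correlation of all of them, with Pearson r 0.885 and Spearman rho 0.83. Its permutation p for r, 1e-05, was the smallest that 100000 resamples can give, and adjusted over all genes it was 0.125, the lowest value a single gene can reach there. So 0 genes (0.0%) could be called by this test unless several reached that p together. limma with the Hsph1 value of each array as covariate, a test chosen after seeing the data, called Dnaja1 with an adjusted p of 0.00203, and it was the 1 gene called (0.00803%). Dnaja1 changed by 0.80 log2 per log2 of Hsph1. With the dose means in the model its adjusted p was 0.266, and with dose and slide it was 0.144.

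The size of this relation was similar within doses and within slides. On deviations from dose means r was 0.846, and on deviations from slide means it was 0.915. Within the 3 slides it was 0.916, 0.934 and 0.957 (7, 6 and 7 arrays), and leaving out any 1 array gave 0.822 to 0.921. Without control replicates 2 and 4, the 2 arrays farthest from the median of Hsph1, it was 0.757.

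Hspa8 (r = 0.71, rho = 0.669), Hsp90aa1 (r = 0.652, rho = 0.659) and Hspa4l (r = 0.569, rho = 0.552) followed, with permutation p of 0.0005, 0.00204 and 0.00878 and adjusted p of 0.341, 0.341 and 0.344. Without control replicates 2 and 4 their r was 0.595, 0.438 and 0.427. Hspa1l (r = 0.493), a testis-rich HSP70, and Bag3 (r = 0.482) had permutation p of 0.0272 and 0.0307 and an adjusted p of 0.362. Their rho was 0.507 and 0.430. Hspa1l read -6.64, -5.57, -6.02, -5.89 and -6.91 in the controls, -6.35, -5.60, -6.11 and -6.55 at 0.06, -6.14, -6.72, -5.79, -5.82 and -6.26 at 20, and -6.60, -5.96 and -5.67 at 60, with all groups overlapping. On deviations from dose means Bag3 had an r of 0.112 only and Hspa1l one of 0.695, and with normexp background correction Hspa1l, well above background on 11 arrays, had an r of 0.04. For Hsp90aa1, 2 further probes correlated with the brightest at 0.90 and 0.94.

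In all, 8 of the other 65 members had a positive r at an unadjusted permutation p under 0.05, which is 12.3% against 6.22% of all named genes, and 3 had a negative one, against 6.57%. The median r over the 65 members was 0.05, as it was over all named genes. The 7 cytosolic HSP70 and HSP110 genes other than Hsph1 had a median r of 0.38, the 10 Dnaja and Dnajb genes of the cytosol 0.32 and the 6 small heat shock proteins -0.31. These are counts and medians over genes measured in the same rats, and no test was run on them.

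**Figure D3:**
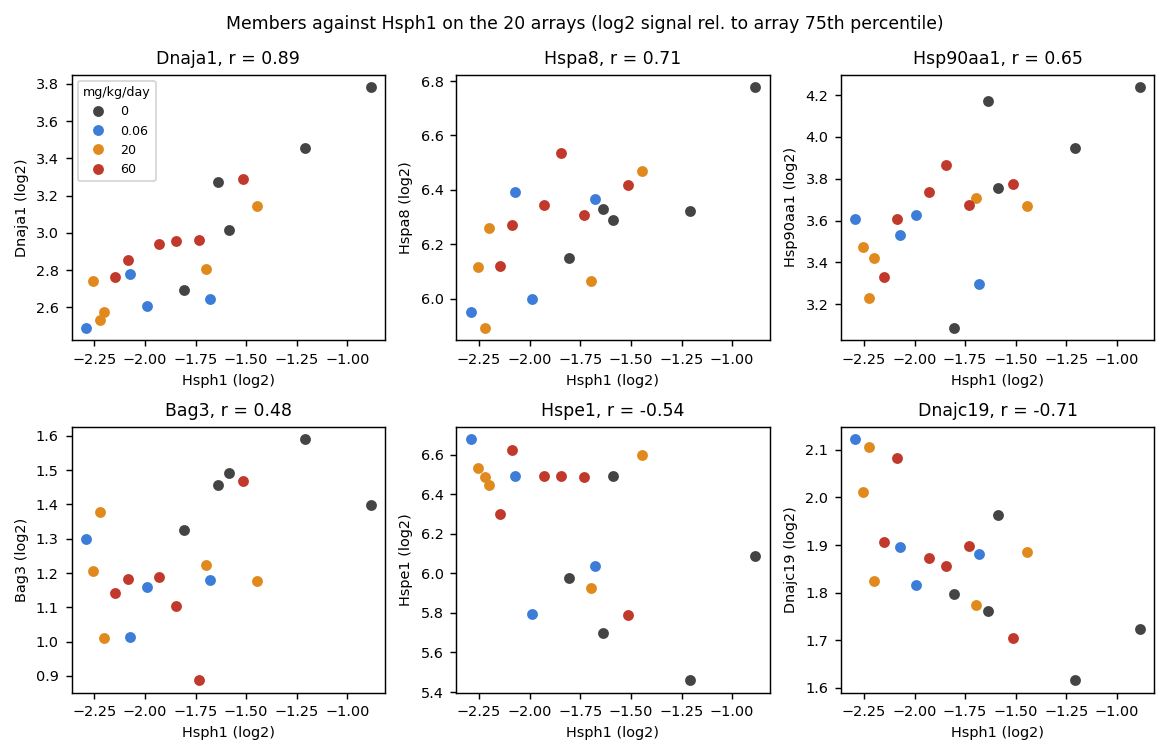
Levels of 6 members plotted against Hsph1 on the 20 arrays, both axes in log2 signal relative to the array's 75th percentile, coloured by dose. Dnaja1 followed Hsph1 most closely (r = 0.89), with control replicates 2 and 4 at the upper right, while Hspe1 and Dnajc19 ran against it (r = -0.54 and -0.71).

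Among genes outside the symbol rule the 5 of highest r with Hsph1 were Chordc1 (0.805), Cyp27b1 (0.768), Bms1 (0.756), Afg2b (0.737) and Kcnj14 (0.733). Their rho lay between 0.663 and 0.809 and their adjusted permutation p between 0.249 and 0.316, so that 0 of them passed. Chordc1 encodes a HSP90 co-chaperone and Cyp27b1 the enzyme that activates vitamin D. Of the 23 measured HSP90 and HSP70 partners, 15 had a positive r, where 55.3% of all named genes did. At an unadjusted permutation p under 0.05, 3 had a positive r and 1 a negative one, against 6.22% and 6.57% of genes. The 3 were Chordc1, Cacybp (r = 0.732, rho = 0.756), which binds the ubiquitin ligase machinery, and Stip1 (r = 0.679, rho = 0.602), the adaptor that hands clients from HSP70 to HSP90. St13, the HSP70-interacting protein HIP, had an r of 0.442 and a rho of 0.454. Without control replicates 2 and 4 the r of Chordc1, Cacybp and Stip1 was 0.626, 0.674 and 0.586.

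Of the 7 mitochondrial members 1, Dnaja3 (r = 0.26), had a positive r with Hsph1. Of the others 2 had an unadjusted permutation p under 0.05, against 6.57% of all named genes with a negative r at that p. The median r of the 7 was -0.42, and 0 of them passed the adjusted test. Dnajc19, a J-domain protein of the import motor of the inner membrane, had the lowest r of all members, -0.707 (rho -0.683, permutation p 0.00057, adjusted p 0.341). It read 1.76, 1.72, 1.96, 1.62 and 1.80 log2 in the controls, 2.12, 1.88, 1.89 and 1.82 at 0.06 mg/kg/day, 1.82, 2.01, 1.89, 1.77 and 2.11 at 20, and 1.70, 1.89 and 2.08 as lowest, median and highest at 60. Its lowest array, control replicate 4, was the second highest of Hsph1. A dimmer probe of Dnajc19 correlated with the brightest at -0.43, so this gene rests on 1 probe. Hspe1 had an r of -0.535 with Hsph1 (rho -0.508, permutation p 0.0152, adjusted p 0.346) and Hspd1 one of -0.425 (rho -0.420). The promoter windows of both hold the heat shock element shown above. On deviations from dose means the r of Hspe1 was -0.362. Dnajc4, a J-domain gene whose client is not well known, had an r of -0.568 (rho -0.662). It read -1.51, -1.23, -1.24, -1.41 and -1.10 in the controls, -1.05, -0.99, -1.17 and -1.19 at 0.06, -1.06, -1.14, -1.38, -1.34 and -1.03 at 20, and -1.27, -1.22 and -1.12 at 60.

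Hspa5 served as the index of the ER chaperones. Its closest member was Dnajb11 (r = 0.759, rho = 0.777, permutation p 0.00014), followed by Dnajb9 (r = 0.695, rho = 0.602, permutation p 0.00046) and Dnajb6 (r = 0.478, rho = 0.429, permutation p 0.0324). The adjusted p over 12451 genes was 0.548, 0.548 and 0.768, and 0 genes (0.0%) were called by the permutation test or by limma with Hspa5 as covariate, with 788 genes at an unadjusted permutation p under 0.05. The first 2 are ER proteins that act with BiP, whereas Dnajb6 is cytosolic and nuclear. Dnajb6 read 0.84, 0.79, 0.59, 0.80 and 0.96 in the controls, 0.62, 1.03, 0.74 and 0.88 at 0.06, 0.67, 0.35, 0.60, 0.90 and 0.60 at 20, and 0.44, 0.71 and 0.90 at 60. All 9 other members classed as ER had a positive r, with a median of 0.41. Over all named genes the median was -0.03, and 46.0% were positive. Of the 65 other members 5 had a positive r at an unadjusted p under 0.05, against 3.58% of genes, and 2 had a negative one, against 2.75%. Dnajb11 kept an r of 0.571 to 0.839 within the 3 slides and 0.701 without the 2 arrays farthest from the median of Hspa5. On deviations from dose means Dnajb11 and Dnajb9 had an r of 0.667 and 0.526.

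The 5 genes outside the symbol rule with the highest r to Hspa5 were Insig1 (0.757), Dag1 (0.746), Atf6b (0.723), Sc5d (0.715) and Ficd (0.71). Their rho lay between 0.672 and 0.746 and their adjusted p was 0.548. Insig1 and Sc5d belong to the control and synthesis of cholesterol, Atf6b is a sensor of the unfolded protein response, and Ficd is the enzyme that modifies BiP with AMP. Of the 19 measured ER stress genes 16 had a positive r, with a median of 0.22, where 46.0% of all named genes did. The 3 at an unadjusted p under 0.05 were Syvn1 (0.626), an ubiquitin ligase of ER-associated degradation, Creld2 (0.478) and Hyou1 (0.463), the ER relative of HSP110. The 2 index genes themselves had an r of 0.31 with each other.

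**Figure D4:**
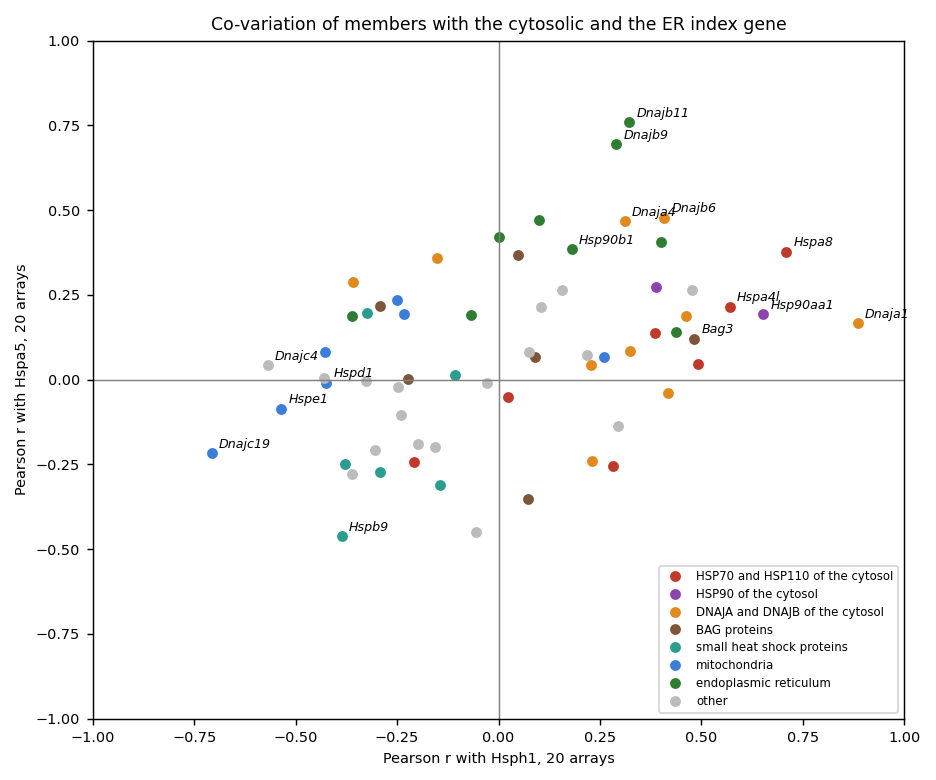
Pearson r of each member with Hsph1 (horizontal axis) and with Hspa5 (vertical axis) over the 20 arrays, coloured by class. Dnaja1, Hspa8 and Hsp90aa1 lie far to the right, the ER genes Dnajb11 and Dnajb9 high up, and the mitochondrial Dnajc19 and Hspe1 far to the left.

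Between the members themselves, 39 of 2145 pairs had an r of 0.7 or more (1.82%, against 1.71% of all pairs of named genes) and 14 had one of -0.7 or less (0.653%, against 0.908%). Strong pairs were thus about as frequent as elsewhere on the array. They were picked by their r and are given with no p. The closest was Hspd1 with Hspe1, the 2 parts of 1 folding machine, whose promoter windows overlap (r = 0.950, rho = 0.835, and 0.934 on deviations from dose means). The 7 mitochondrial members had a median r of 0.57 over their 21 pairs, of which 20 were positive and 5 at 0.7 or more, and 0.55 on deviations from dose means. The ER members had a median of 0.25 over 45 pairs, the cytosolic HSP70 and HSP110 genes 0.13 over 28 and all members 0.03. Dnaja1 also ran with Hsp90aa1 (r = 0.81) and Hspa8 (r = 0.77). Hspa4l ran against Hspe1 (r = -0.73).

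**Figure D5:**
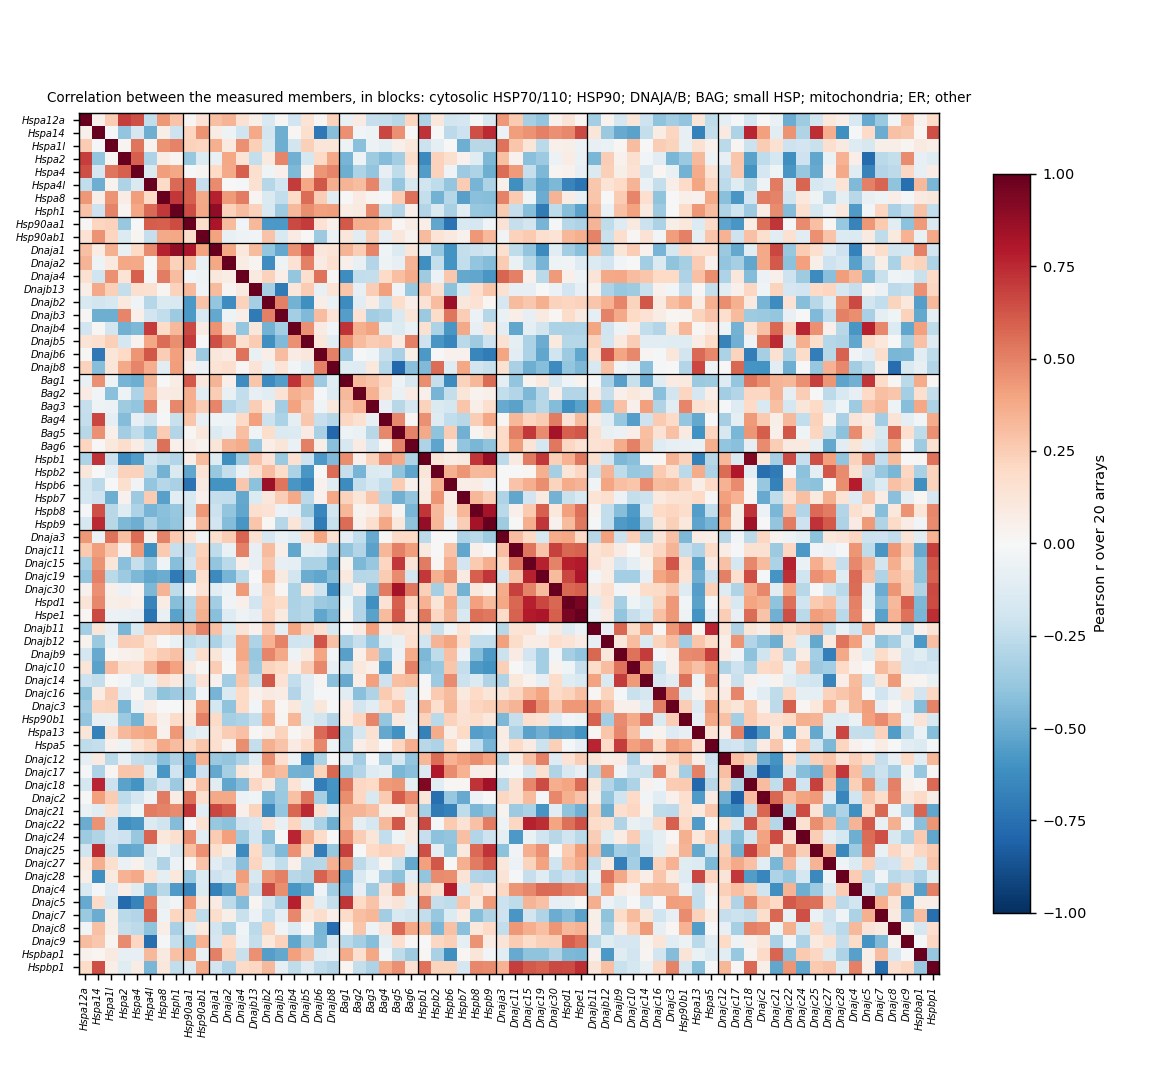
Pearson r between all pairs of the 66 measured members over the 20 arrays, in blocks by class separated by black lines, from -1 (blue) to 1 (red). The mitochondrial block is red nearly throughout (median r 0.57), and the cytosolic genes Hsph1, Hspa8, Hsp90aa1 and Dnaja1 form a small red group that crosses class lines.

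The SD within dose groups had a median of 0.212 log2 over the 66 members, against 0.253 over all named genes, and 40 members lay in the lower part of the ranking over all genes, below its middle. The 4 most variable members, Hspb1, Hspb9, Hspa4l and Dnajb8, had an SD of 0.76, 0.69, 0.66 and 0.79. Dnajb8 was well above background on 10 arrays only. The smallest SD, 0.08, was that of Dnajb11.

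Markers of other cells were set beside these values. In the adjusted permutation test for r with Hsph1 or Hspa5, 0 genes passed. In the adjusted limma test, 0 probes passed at any dose or for the trend. Of the 8 macrophage markers, all measured, 8 had a negative r with Hsph1, 4 of them at an unadjusted p under 0.05 and Cd163 at -0.778, and all 8 stood higher at each dose, 3 and 5 of them at an unadjusted p under 0.05 at 20 and 60 mg/kg/day. Their summed level ranged from 4.41 to 5.17 log2 in the controls, 4.34 to 5.57 at 0.06, 4.93 to 5.44 at 20 and 4.77 to 5.59 at 60. Of the 8 smooth muscle markers 8 had a negative r, 5 at an unadjusted p under 0.05, and their summed level ranged from 3.62 to 4.71, 3.45 to 4.76, 4.06 to 4.76 and 3.81 to 4.42 in order of dose. Of the 9 measured ovarian markers 8 had a positive r with Hsph1, 3 at an unadjusted p under 0.05, led by Amh (0.595) of the granulosa cells, while Star of the steroid-making cells stood at -0.532. Their summed level ranged from 7.75 to 8.08, 7.94 to 8.37, 7.70 to 8.04 and 7.86 to 8.19. By gene 7, 8 and 4 of the 9 stood lower at doses 0.06, 20 and 60, with medians of -0.19, -0.54 and 0.17, and at 20, the dose at which 4 ER members stood lower at an unadjusted p under 0.05, 4 of the ovarian markers did so too. All 6 measured endothelial markers had a positive r, 1 at an unadjusted p under 0.05, with summed levels of 3.09 to 3.74, 2.80 to 4.05, 2.90 to 3.53 and 2.71 to 3.27. The summed level of the oviduct epithelium markers, 5 of 10 measured and Spag6 below background, ranged from -2.13 to 0.24, -2.31 to -1.58, -2.22 to 0.05 and -2.17 to -1.09 in order of dose. The 4 erythrocyte and 5 adipocyte markers had a median r of 0.09 and -0.01 with Hsph1. Of the erythrocyte markers 1, 4 and 4 stood lower at the 3 doses, with medians of 0.04, -0.46 and -0.42, and 3 had an unadjusted p under 0.05 in the trend. Of the adipocyte markers 1, 4 and 4 stood lower, with medians of 0.12, -0.20 and -0.59. With Hspa5, 9 of 9 ovarian markers had a positive r (median 0.28), 2 of them at an unadjusted p under 0.05, and 8 of 8 macrophage markers a negative one (median -0.34), 1 of them so. Of all named genes 55.3% had a positive r with Hsph1 and 46.0% with Hspa5. By dose, 53.0%, 44.9% and 55.3% of them stood lower at 0.06, 20 and 60. At an unadjusted permutation p under 0.05, 6.22% of genes had a positive and 6.57% a negative r with Hsph1. With Hspa5 these shares were 3.58% and 2.75%. At an unadjusted p under 0.05 in limma, 3.2% and 3.58% of genes stood higher at 20 and 60. At that p 2.39% stood lower at 20 and 2.87% lower in the trend. The part of these cells in the chaperone values was not tested.

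Technical measures were set beside the index genes in 4 relations. The share of spots well above background had an r of 0.467 with Hsph1 (rho 0.448, permutation p 0.040, adjusted over the 4 relations 0.160), which was 0.283 without 2 arrays, those farthest from the median. The 75th percentile had an r of 0.341 with Hsph1 (rho 0.319, permutation p 0.142, adjusted 0.244). For Hspa5 the r was -0.116 and -0.310 (rho -0.117 and -0.319), with adjusted p of 0.627 and 0.244. By slide Hsph1 averaged -1.77 ± 0.50, -1.96 ± 0.23 and -1.73 ± 0.33 (SD, 7, 6 and 7 arrays). Hspe1 averaged 6.15 ± 0.35, 6.52 ± 0.05 and 6.10 ± 0.43. In 12 members other probes were also measured, 17 in all. For 3 of these members, Dnajc14, Dnajc17 and Dnajc19, a dimmer probe gave a dose difference of opposite sign.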

How the data were processed

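Feature Extraction 11.5.1.1 made the intensity values from the scanned arrays, per the file headers, with background subtracted by the authors' software. The deposited intensity (processed signal) was taken as log2 minus log2 of each array's 75th percentile over non-control spots. Spots of one probe were averaged. A probe was kept if well above background on at least 4 of 20 arrays, which left 23258, and the brightest stood for each gene. The authors' deposited log2 values served as an alternative and correlated with these at 0.946 to 0.991 per array. One array at 0.06 mg/kg/day that the submitters removed as an outlier was not analysed here. limma 3.58.1 (R 4.3.3) fitted group means over 20 arrays, and co-variation used 100000 permutations (numpy 2.4.6), with Benjamini-Hochberg adjustment over all probes or genes. The code was tested on simulated data. Alternatives were normexp (offset 50) on the median signal, since a mean signal column was not used here, quantile normalization, slide as a block and each array left out. The number of arrays limits the precision. Same-numbered arrays of different groups correlated at -0.31 to 0.35 in their deviations, so the numbers were not taken as pairs.

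The members and lists were chosen with earlier results of these data known. Each member was put in a class by an assigned list, and 17, Dnajc18 and Dnajc28 among them, were left unclassed. Statements on a class cover only the members put in it. Genes given rat by rat (at 60 mg/kg/day by the lowest, median and highest) are the cytosolic core list and Hspa5, the 3 members of smallest p at each dose, and the 6 of highest and 3 of lowest r with Hsph1 and 3 of highest r with Hspa5. Outside the symbol rule, up to 4 examples per list and the 5 genes of highest r are named. Other members are examples chosen after their values were seen, Dnajb11 and Hsp90b1 at 20 mg/kg/day among them.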

Additional observations from a re-analysis of the deposited data

Results flagged for a closer look

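In 8 of 80 gene and dose groups tested, 1 rat stood far from the rest of its group, where chance gives about 5.0% of groups and 10.0% were seen. Hspa8 read 6.78 in control replicate 2, with the other controls between 6.15 and 6.33 log2. Hspa5 read 4.73 in control replicate 5, with the others between 4.53 and 4.58. At 0.06 mg/kg/day replicate 1 stood apart for both Hspa4, at 2.41 with the others between 2.65 and 2.68, and Dnajc16, at -3.49 with the others between -4.16 and -4.10. At 20 mg/kg/day replicate 4 stood apart for Hspe1, at 5.93 with the others between 6.45 and 6.60, and for Hspb7, at -5.79 with the others between -6.25 and -6.16. At 60 mg/kg/day Hsp90ab1 read 4.12 in replicate 6, with the others between 4.02 and 4.05, and Hspb1 read 3.84 in replicate 5, with the others between 1.85 and 2.33.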

How the results depend on the processing

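The count of 0 probes for dose stayed at 0 under every alternative run: normexp, quantile normalization, the authors' values, slide as a block, the replicate number as a block, and each array left out. The permutation test for co-variation with Hsph1 called 0 genes, whereas quantile normalization called 3 genes (Dnaja1, Hspa8 and Chordc1), of which 2 are members, and the limma covariate called 1 gene, which is 1 member. For Hspa5 the count was 0 in every setting. The difference of Hspb7 at 60 mg/kg/day turned to 0.0111 log2 with normexp, and the cause was not tested. When single arrays were left out, members lower at an unadjusted p under 0.05 numbered 3 to 9 at 0.06, 6 to 11 at 20 and 3 to 9 at 60 mg/kg/day, and members higher 1 to 7, 0 to 4 and 0 to 4. The share of all genes lower moved too, from 1.08% to 3.48%, 1.42% to 4.93% and 2.04% to 5.26%. The share of genes higher was not counted in these runs, so the counts of members higher cannot be set against it. Probes at that p in either direction numbered 449 to 1437, 558 to 2148 and 960 to 2256. The highest counts of members lower, 9, 11 and 9, came without control replicate 5, with 2.66%, 3.1% and 3.38% of genes lower. The lowest, 3, 6 and 3, came without control replicate 4 or replicate 2 of its own dose at 0.06, without control replicate 1 or replicates 1 or 5 of its own dose at 20, and without control replicate 1 or replicate 2 of its own dose at 60. Under the other alternatives, members higher numbered 1 to 5, 1 to 3 and 0 to 3, and the share of genes higher was again not counted. The numbers do not pair the samples: 1 of 20 arrays correlated best with an array of its own number, and with the replicate block 0 probes were called. Counts of calls within single slides were not made. Genes near background, such as Hspb7 and Hspa1l, are measured least well.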

Other observations

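Hspb1 fell into separate ranges on the 20 arrays. It read 3.53 in replicate 1 at 0.06 mg/kg/day, 3.27 and 3.43 in replicates 2 and 5 at 20, 3.84 in replicate 5 at 60 and 3.86 in control replicate 3. The other 15 arrays lay between 1.47 and 2.43 log2. Hspb9 and Dnajc18 had their highest values on the same 5 arrays. Hspb9 lay between -2.59 and -2.11 there and between -4.79 and -3.30 on the other 15, and Dnajc18 between -2.73 and -2.56 there and between -3.48 and -2.99 on the other 15. The 5 arrays came from all 4 groups.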
